A study of Homo sapiens with 4 samples.

Results

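AXL, TYRO3 and MERTK are the receptor tyrosine kinases of the TAM family, and GAS6 and protein S (PROS1) are their ligands. The 5 genes were taken by symbol from the deposited table of all 4 arrays, and every probe set paired with 1 of them alone was kept. They came to 10 probe sets of 49293 tested, 2 each for AXL, TYRO3 and GAS6, 1 for MERTK and 3 for PROS1. The family was taken up because AXL had one of the larger decreases in these same arrays. The values of its members in knockdown and mock cells are therefore given as a description, and no test of them is used as support.

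TAM receptors have an extracellular part of immunoglobulin-like and fibronectin-like domains and an intracellular tyrosine kinase. Their ligands bind phosphatidylserine on dying cells or membrane fragments through a domain modified by vitamin K-dependent carboxylation and bind the receptor through their other end, so that one molecule bridges both. GAS6 binds all members of the receptor family, and protein S, which is also an anticoagulant of the blood, acts on TYRO3 and MERTK. In carcinoma cells AXL is known for its link to invasion, to a mesenchymal cell state and to resistance against kinase inhibitors, and MERTK is best known for the uptake of dying cells by macrophages.

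The cells were OE33, an established line from a human adenocarcinoma of the oesophagus, grown in medium with 15% serum. One group of 2 arrays came from cells given an siRNA pool directed at ARID1A, a part of the SWI/SNF complex that remodels chromatin and binds DNA. The other group of 2, called mock here, came from cells transfected with a pool of non-targeting siRNAs. Both pools were used at a final concentration of 50 nM, 24 hours after plating, and cells were harvested 48 hours after transfection. All groups therefore share the transfection, and all values come from 1 cell line and 1 time point. The series asked for effectors downstream of ARID1A that could contribute to tumour growth when it is lost. Values are log2 expression per probe set from Affymetrix Human PrimeView arrays, SDs are over the 2 biological replicates of a group, and changes are knockdown minus mock. An array has no read depth, so the number of arrays limits the precision.

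The targeted gene ARID1A went with the array labels, and its brightest probe set (11719858_a_at) read 3.43-fold less after knockdown. That was the largest decrease among its probe sets. The others changed by -1.61, -1.39, -1.37, -0.36 and 0.11 log2 units, and those at -0.36 and 0.11 did not pass the test. Array medians lay between 5.89 and 5.93. All 6 measured epithelial marker genes gave bright signals, with mock means from 11.90 to 14.56. In limma 0 of them passed the test, and 0 also at an unadjusted p under 0.05. All 6 had positive changes, with a median of 0.036. The log2 of their summed signal was 16.12 and 16.13 in knockdown and 16.08 and 16.09 in mock. Of 7 macrophage markers 1 lay above the median brightness of all probe sets, CD68, of 6 fibroblast markers 0 did and of 6 endothelial markers 1 did, VWF. Most markers of these other cell types had negative changes, 5 of 7 macrophage, 5 of 6 fibroblast and 6 of 6 endothelial ones, against 51.3% of all genes. Their medians were -0.18, -0.10 and -0.15. At a p under 0.05 in limma with no adjustment, 7.25% of all genes were lower and 9.76% higher. Of these mostly dim markers none passed the adjusted test, and at that unadjusted p 1, 1 and 3 were lower and 0 higher. The log2 of their summed signal ran from 7.79 to 7.83 in knockdown and from 7.89 to 7.96 in mock for the macrophage list, from 7.09 to 7.26 and from 7.24 to 7.38 for the fibroblast list, and from 7.87 to 7.95 and from 8.05 to 8.11 for the endothelial list. Their part in the results was not tested. For beta-actin, the difference between the 3′ and the 5′ probe set, a measure of RNA integrity, was 1.21 and 1.10 in knockdown and 1.04 and 0.995 in mock. It was higher in both knockdown arrays, while the same measure for GAPDH overlapped between the groups, at 0.201 and 0.215 in knockdown and 0.199 and 0.211 in mock. The part of RNA integrity in the results below was not tested.

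The stretch of genome around the start of AXL is shown first, because AXL was the one member past the threshold and several factors reported to act on its promoter were measured on the same arrays. RefSeq (GRCh38.p14) gives 2 start sites for AXL, both on the plus strand of chromosome 19. Each window runs from 250 bases before the start to 50 bases after it. Capitals mark matches, on either strand, to the GC box bound by SP1 (GGGCGG), the AP-1 site (TGANTCA) and the core of the site bound by TEAD factors (GGAATG).
AXL, first start, chr19:41218973-41219272: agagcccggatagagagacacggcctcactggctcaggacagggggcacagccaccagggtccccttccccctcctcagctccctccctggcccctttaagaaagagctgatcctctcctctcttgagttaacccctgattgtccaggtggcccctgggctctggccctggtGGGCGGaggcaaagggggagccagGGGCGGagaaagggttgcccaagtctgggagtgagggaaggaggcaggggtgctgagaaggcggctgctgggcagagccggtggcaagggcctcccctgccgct
AXL, second start, chr19:41226505-41226804: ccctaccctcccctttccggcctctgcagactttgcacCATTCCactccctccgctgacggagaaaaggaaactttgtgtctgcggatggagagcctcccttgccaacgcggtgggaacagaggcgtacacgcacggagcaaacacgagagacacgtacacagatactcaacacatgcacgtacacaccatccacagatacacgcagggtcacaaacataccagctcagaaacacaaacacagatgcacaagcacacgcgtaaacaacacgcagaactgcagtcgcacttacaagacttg

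The window of the first start held 2 GC boxes, whose first bases lie at -78 and -54 from the start, and that of the second start held 1 match to the TEAD core, on the opposite strand at -212. Neither held the letters of an AP-1 site. Of 35116 RefSeq promoter windows of 300 bases, 44.95% held the GC box, 14.03% the TEAD core and 7.71% the AP-1 site. The G and C content was 66.0% in the first window and 53.7% in the second, against a median of 58.7% over all windows. Among the windows of the other members, those of MERTK, GAS6 and PROS1 held 5, 3 and 2 GC boxes. The first of the 2 windows of TYRO3 held 3 and also 1 match to the AP-1 pattern, with the letters TGAATCA. That pattern takes any base in the middle (N), so it is a loose one. The arrays do not tell which start a probe set reads, and these matches are letters in a window, not sites shown to be bound. GC boxes near the start were not particular to 1 member, with first bases at -12 in TYRO3, -16 in GAS6 and 22 in MERTK. No link between these positions and the changes was tested. The window of PROS1, the member with the largest positive change (0.51, not past the threshold), is shown last. It lies on the minus strand of chromosome 3 and has both of its GC boxes within 24 bases of the start.
PROS1, chr3:93973847-93974146: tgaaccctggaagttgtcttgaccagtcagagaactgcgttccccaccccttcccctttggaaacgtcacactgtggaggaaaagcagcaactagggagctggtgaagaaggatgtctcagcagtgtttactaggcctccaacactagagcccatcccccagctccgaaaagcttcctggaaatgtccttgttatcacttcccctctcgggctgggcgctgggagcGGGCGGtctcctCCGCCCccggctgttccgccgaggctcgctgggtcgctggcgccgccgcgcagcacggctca

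Among the receptors, AXL was lower in the ARID1A knockdown cells at both of its probe sets, and TYRO3 and MERTK were nearly level at their brightest ones. At the brighter AXL probe set, 11716587_at, the log2 values were 9.95 and 9.82 in mock replicates 1 and 2 and 8.68 and 8.67 in knockdown replicates 1 and 2. The groups did not overlap, and the gap between the higher knockdown array and the lower mock array was 1.14 log2 units. The means were 9.89 ± 0.093 (SD, n = 2) in mock and 8.67 ± 0.0082 (SD, n = 2) in knockdown cells, a change of -1.21 (SE 0.080) that left 43.2% of the mock signal. Of 18132 genes, each taken at its brightest probe set, 8 had a change this low or lower, AXL included. In a population of cells, fewer cells with the transcript and less transcript per cell cannot be told apart.

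The second AXL probe set, 11716586_a_at, was dimmer and moved less. Its values were 6.42 and 6.56 in the mock arrays and 6.06 and 5.96 in the knockdown arrays, again without overlap. The means were 6.49 ± 0.099 and 6.01 ± 0.075 (SD, n = 2 each), a change of -0.48 (SE 0.088) that left 71.9% of the mock signal. The changes of the 2 probe sets differed by 0.74 log2 units, so the size of the decrease of AXL depends on the probe set read, while its direction does not. Averaged over both, the change was -0.84. Neither probe set carries a suffix that marks probes shared with other sequences.

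TYRO3, the receptor of the family best known from the nervous system, had 2 probe sets that differed in sign. At the brighter, 11722102_a_at, the values were 7.61 and 7.58 in mock and 7.63 and 7.60 in knockdown cells. These 4 values lay within 0.05 of each other and overlapped between the groups, with a change of 0.02 (SE 0.071). At 11722101_a_at they were 6.49 and 6.52 in mock and 6.31 and 6.33 in knockdown cells, a change of -0.19 (SE 0.071) without overlap. The means there were 6.51 ± 0.021 and 6.32 ± 0.015 (SD, n = 2 each), and knockdown cells kept 87.9% of the mock signal.

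MERTK was read by 1 probe set, 11724931_a_at. Its values were 6.92 and 6.93 in mock and 6.91 and 6.999 in knockdown cells. The mock values lay between the knockdown values, and the change was 0.03 (SE 0.075). With this SE, the 95% confidence interval of the moderated fit ran from -0.16 to 0.21, so a change of the size seen at the brighter AXL probe set lies outside it. The interval for the brighter TYRO3 probe set ran from -0.16 to 0.20. Changes within these limits were not resolved by 4 arrays.

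**Figure D1:**
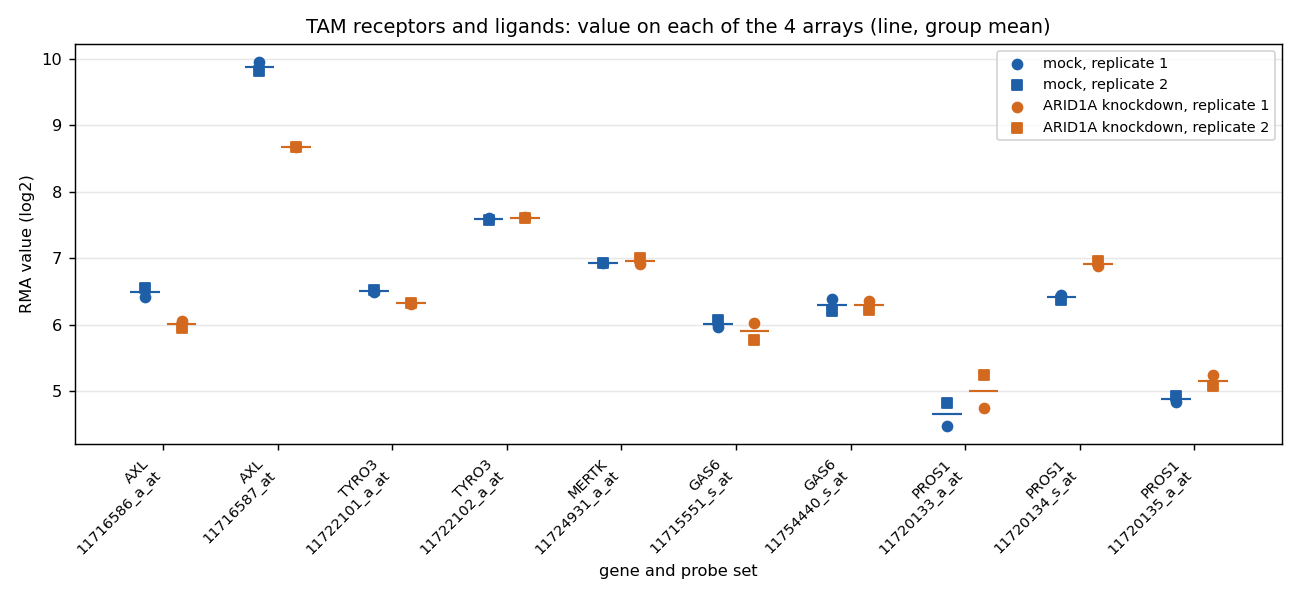
Log2 value (vertical axis) of each of the 10 probe sets (horizontal axis) on each array, with mock in blue, ARID1A knockdown in orange, replicate 1 as circles, replicate 2 as squares and group means as lines. Both knockdown arrays lie below both mock arrays at the 2 AXL probe sets and above them at PROS1 11720134_s_at and 11720135_a_at.

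Among the ligands, GAS6 showed no separation between the groups, while protein S was higher in the knockdown cells at 2 of its 3 probe sets. GAS6 is the ligand with the highest affinity for AXL. At 11754440_s_at its values were 6.39 and 6.21 in mock and 6.36 and 6.23 in knockdown cells, a change of -0.01 (SE 0.098). At 11715551_s_at they were 5.96 and 6.08 in mock and 6.03 and 5.77 in knockdown cells, a change of -0.12 (SE 0.11). Both knockdown values of the first probe set lay between its mock values, and at the second one knockdown array lay below both mock arrays and the other between them. Both probe sets have the suffix _s_at, so their probes can match other transcripts, and GAS6 had no probe set without it.

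PROS1 differed most at 11720134_s_at, its brightest probe set. The values were 6.46 and 6.37 in mock and 6.88 and 6.96 in knockdown cells. The groups were 0.43 log2 units apart at their nearest arrays. The means were 6.41 ± 0.061 and 6.92 ± 0.059 (SD, n = 2 each), a change of 0.51 (SE 0.079), or 1.42-fold higher in knockdown cells. Of 18132 genes 202 had a change this high or higher, or 1.11%.

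The 2 other PROS1 probe sets, which lack the shared suffix, were dimmer and had smaller changes of the same sign. At 11720135_a_at the values were 4.83 and 4.93 in mock and 5.24 and 5.08 in knockdown cells, a change of 0.28 (SE 0.089) without overlap. At 11720133_a_at they were 4.48 and 4.83 in mock and 4.74 and 5.25 in knockdown cells, a change of 0.35 (SE 0.20). There the lower knockdown array lay below the higher mock array. Each of the 4 arrays weighed on that change. Leaving out knockdown replicate 2 gave 0.09, mock replicate 1 gave 0.17, mock replicate 2 gave 0.52 and knockdown replicate 1 gave 0.60.

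Of the 10 probe sets 1 passed the threshold of an adjusted p under 0.05 (limma, adjusted by Benjamini-Hochberg over all probe sets), 11716587_at of AXL, against 0.316% of all tested. The groups did not overlap at 3 of the 10 with knockdown lower and at 2 with knockdown higher, against 22.5% and 24.2% of all probe sets. By gene, 1 of 5 members passed, against 0.403% of all genes. AXL was chosen from this contrast, so nothing is read from these counts. The brighter AXL probe set lost the threshold with the replicate number as a block (adjusted p = 0.217, limma) and with any 1 array left out (0.244 to 0.521), while its change stayed between -1.28 and -1.15. PROS1 11720134_s_at crossed the threshold in 3 other settings and the second AXL probe set in 2, as given under the dependence on processing.

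**Figure D2:**
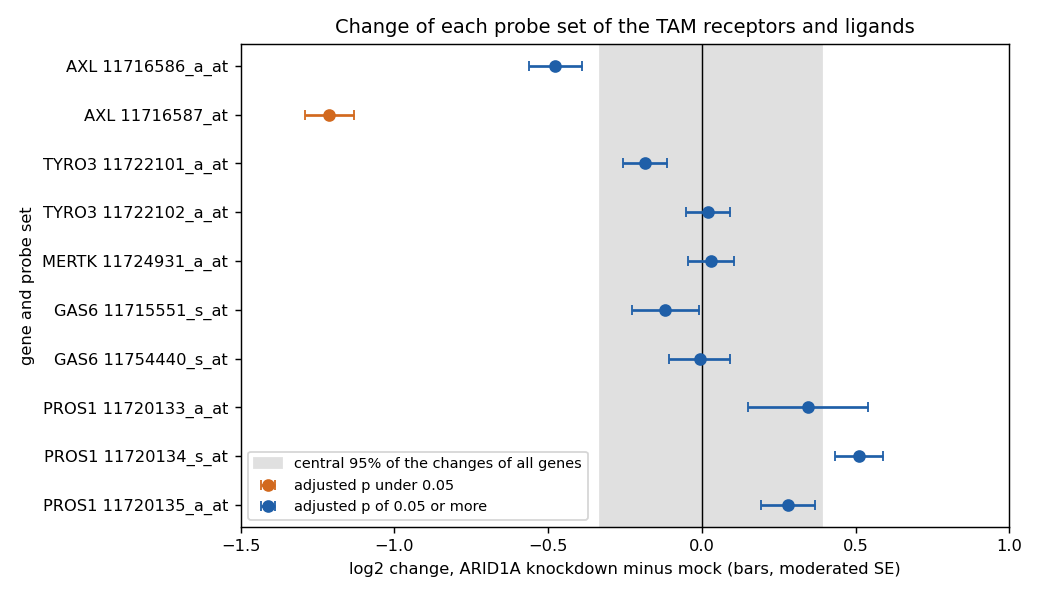
Log2 change, knockdown minus mock (horizontal axis), of each probe set (vertical axis), with the moderated SE as bars, the probe set past the threshold in orange and the central 95% of the changes of all genes (-0.33 to 0.39) in grey. Both AXL probe sets lie left of the grey band at -1.21 and -0.48, PROS1 11720134_s_at lies right of it at 0.51, and the other 7 points lie inside.

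The TAM receptors were set among all measured receptor tyrosine kinases, as a description. Over 56 such genes at their brightest probe sets, AXL had the lowest change, and the next lowest was -0.36, for the VEGF receptor KDR. TYRO3 and MERTK stood 34th and 37th in that order from the lowest. Of the 53 kinases outside the TAM family, 24 had a positive and 28 a negative change and 1, FLT4, had equal means in both groups, with a median of -0.01. Over all genes 51.3% of the changes were negative. None of the 53 passed the test, against 0.403% of all genes. With no adjustment (limma p under 0.05) 8 of the 53 were higher and 4 lower, against 9.76% and 7.25% of all genes. AXL is reported to pair with EGFR, ERBB2, ERBB3 and MET, whose changes were 0.40, 0.06, 0.60 and -0.05. Of the 8 probe sets of EGFR 6 were positive and 2 negative, from -0.11 to 0.40. ERBB3, a kinase-impaired partner of ERBB2, had an adjusted p of 0.0525 in limma, and its 3 probe sets differed in sign. With the arrays centred on their medians, quantile normalized, rid of dim probe sets or fitted with an intensity trend, ERBB3 passed.

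**Figure D3:**
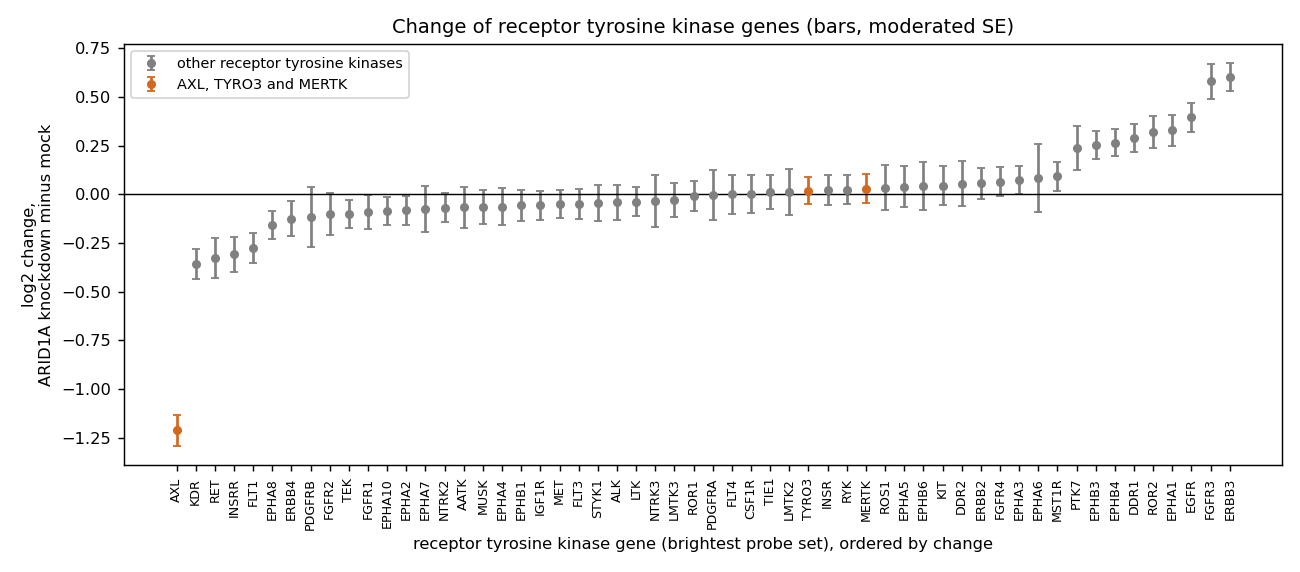
Log2 change, knockdown minus mock (vertical axis), of 56 receptor tyrosine kinase genes (horizontal axis, ordered by change), with the moderated SE as bars and the TAM receptors in orange. AXL lies at -1.21, below KDR at -0.36, while TYRO3 and MERTK lie at 0.02 and 0.03.

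By the root mean square distance between profiles centred on their own means, the genes whose 4 array values were most like those of AXL were ISG20L2 (0.041 log2 units), SLC2A4RG (0.049), CA13 (0.067) and ARHGDIA (0.077). ISG20L2, a nucleolar exonuclease gene, stood at 10.2 in both mock arrays and at 9.08 and 9.06 in the knockdown arrays. SLC2A4RG, a zinc finger gene, stood at 9.25 and 9.23 in mock and at 8.06 and 8.09 in knockdown cells. The likeness rests on 4 arrays. All 4 of these genes passed the test, with changes from -1.28 to -1.11. They were picked for profiles near that of AXL, so changes close to that of AXL follow from the choice. Their passing is therefore not a separate result. ISG20L2 and ARHGDIA were read at probe sets ending in _x_at and _s_at, whose probes can match other transcripts.

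Genes around the TAM receptors were read from 7 lists drawn from textbook knowledge, which held 134 measured genes. None of the 134 passed the test over all probe sets in limma, against 0.403% of all genes. At a p under 0.05 with no adjustment, 9.76% of all genes were higher and 7.25% lower, and the median change of all genes was -0.0043. In 5 of 12 other settings between 2 and 18 list genes passed.

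The transcription factors reported to act on the AXL promoter numbered 13, of which 3 were lower and 0 higher at a p under 0.05 with no adjustment, with a median change of -0.02. SP1, which binds GC boxes, had a change of -0.02 (SE 0.073), the zinc finger factor MZF1 of 0.02 (SE 0.092) and YAP1, the coactivator of TEAD factors, of 0.02 (SE 0.072). FOSL1, a subunit of AP-1, stood at 9.82 and 9.97 in mock and at 9.29 and 9.32 in knockdown cells, a change of -0.59 (SE 0.085, adjusted p = 0.0699 in limma). All 6 probe sets of FOSL1 had negative changes, from -0.59 to -0.30. WWTR1 (TAZ), the second coactivator of TEAD factors, was named after its values were seen. It stood at 9.29 and 9.24 in mock and at 8.47 and 8.62 in knockdown cells, a change of -0.72 (SE 0.084, adjusted p = 0.0525), and its 2 other probe sets had changes of -0.48 and -0.16. JUN, the partner of FOSL1 in AP-1 and the third of the 3 lower genes, had a change of -0.30 (SE 0.10, adjusted p = 0.244), and its 4 probe sets were all negative. WWTR1 passed the test in 5 of 12 other settings and FOSL1 in 4.

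The list of ligand maturation and receptor shedding had a median change of 0.13 over 10 genes, of which 5 were higher and 0 lower at that p. It also held LGALS3, TUB and TULP1, which are not genes of maturation or shedding, so these figures are not of that process alone. LGALS3, one of the 5 and named after its values were seen, had a change of 0.42 (SE 0.072) and passed in 3 of 12 other settings. TUB had a change of -0.07 and TULP1 of 0.02. ADAM10 and ADAM17 are membrane proteases that release the extracellular part of AXL and MERTK. ADAM10 stood at 8.20 and 8.07 in mock and at 8.51 and 8.64 in knockdown cells, a change of 0.44 (SE 0.090), and all 4 of its probe sets were positive. ADAM17 stood at 9.77 and 9.68 in mock and at 10.2 and 10.1 in knockdown cells, a change of 0.44 (SE 0.076). Of its 4 probe sets 3 were positive, but 1 of these, 11747645_a_at, was level at 0.001, and 11762039_at was at -0.03. GGCX, the vitamin K-dependent carboxylase of GAS6 and protein S, had a change of -0.05 (SE 0.083), and VKORC1, which recycles vitamin K, of 0.23 (SE 0.070). None of these passed over all probe sets, and ADAM10 and ADAM17 each passed in 2 of 12 other settings.

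The adaptors and effectors that TAM receptors are known to use had a median change of 0.07 over 18 genes, with 2 higher and 0 lower at that p. The adaptor GRB2 had a change of -0.13 (SE 0.072), PIK3R1, a regulatory subunit of PI3 kinase, of -0.02 (SE 0.074) and the adaptor SHC1 of 0.06 (SE 0.072). PIK3CA was not analysed here. The protein S and vitamin K-dependent partners had a median of 0.08 over 12 genes, with 3 higher and 0 lower. C4BPB, the chain of C4b-binding protein that holds protein S, had a change of 0.08 (SE 0.086) and C4BPA of 0.01 (SE 0.070). TFPI, an inhibitor of coagulation for which protein S is a cofactor, stood at 9.29 and 9.15 in mock and at 9.63 and 9.81 in knockdown cells, a change of 0.50 (SE 0.096, adjusted p = 0.111 in limma), and its 3 probe sets were all positive. PROCR, the endothelial protein C receptor, had a change of 0.18 (SE 0.071). The third higher gene, thrombomodulin (THBD), named after its values were seen, had a change of 0.46 (SE 0.074, adjusted p = 0.0813) and was positive at both of its probe sets.

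**Figure D4:**
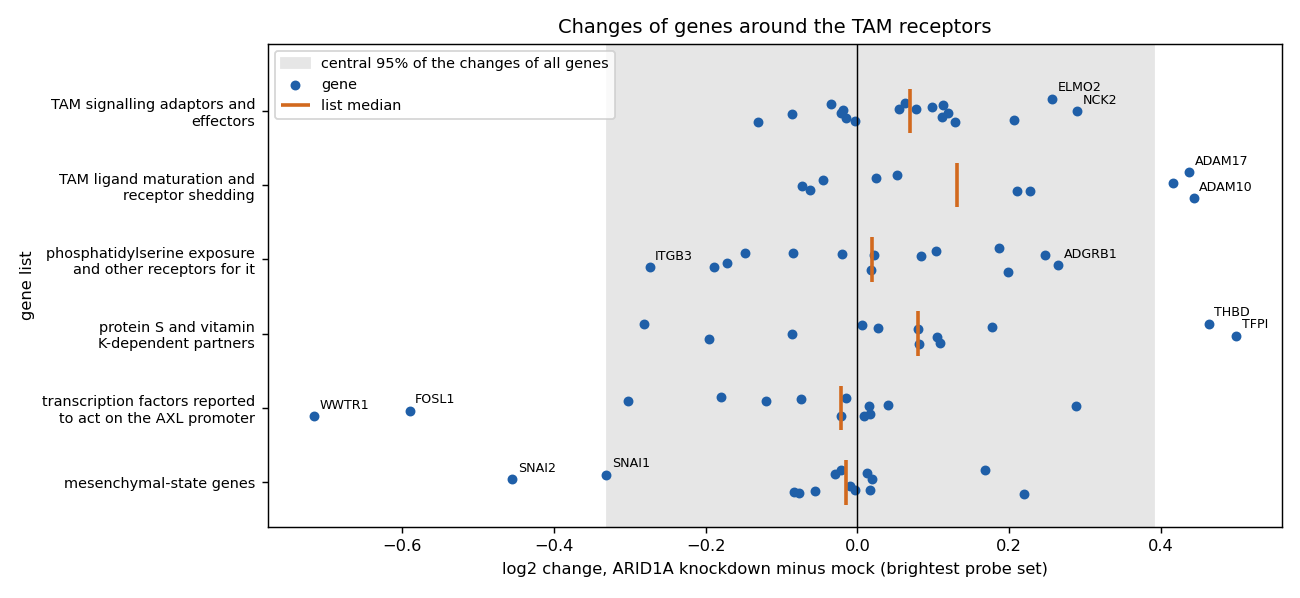
Log2 change, knockdown minus mock (horizontal axis), of each gene (blue points) in 6 lists around the TAM receptors (vertical axis), with list medians in orange, the central 95% of the changes of all genes in grey and the 2 largest changes of each list named. WWTR1 at -0.72, FOSL1 at -0.59 and SNAI2 at -0.45 lie left of the band, SNAI1 lies just outside its left edge, and ADAM10, ADAM17, LGALS3, THBD and TFPI lie right of it.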

How the data were processed

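The deposited table holds a log2 value for each probe set and array. RMA and Partek are named in the submitters' processing notes without version or role. RMA sets arrays to a common distribution, so a change in total mRNA cannot be seen and changes of dim probe sets are understated. The deposited probe set values were not fully equal in distribution, with 75th percentiles from 7.99 in mock replicate 2 to 8.07 in knockdown replicate 2. No source used here gives scan dates or batches. Of 49372 probe sets, 79 controls were left out. Names came from the platform annotation, which gives 1 gene for 44988 probe sets, several for 1832 and none for 2473. A gene was read at its brightest probe set.

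Knockdown was compared with mock by limma 3.58.1 in R 4.3.3 (lmFit, eBayes, two-sided), with Benjamini-Hochberg adjustment over 49293 probe sets and a threshold of 0.05. SEs and intervals are those of the moderated fit, with 2 residual degrees of freedom plus 3.62 from the prior. Tested on simulated arrays of this comparison with 49293 probe sets, the fit recovered 2 of 50 probe sets changed by 0.5, 41 of 50 changed by 1, 48 by 1.5 and 50 by 2, and 5 of 146 calls were false. The simulated errors were independent between probe sets, with variances drawn from the fitted prior. These counts therefore do not give the share of false calls on the real arrays. An exact permutation test of 2 against 2 arrays cannot go below 0.333.

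No label ties same-numbered arrays to 1 culture or day, and their deviations from the group means correlated at -0.20 over probe sets, so no pairing was used. The members and lists were chosen with earlier results of these data known. Named were all member probe sets, ARID1A, the first 4 genes of each list as written and any list gene past the test, and the 4 genes nearest to AXL. Others are marked as named after their values were seen, or stand beside a count. Of 144 list genes, 134 had a probe set of their own. Promoter windows came from RefSeq (GRCh38.p14), matched by symbol for all 5 members. Alternatives were other scaling, a filter on dim probe sets, an intensity trend, unshared probe sets, the mean of a gene's probe sets, the replicate number as a block and leaving out each array.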

Additional observations from a re-analysis of the deposited data

How the results depend on the processing

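The decrease of AXL kept its direction in all 12 alternatives and passed the threshold in 6 of them. Its change was -0.84 when its 2 probe sets were averaged, and -1.21 (adjusted p = 0.217, limma) with the replicate block. With the crossed replicate block, chosen after seeing the data, it was -1.21 (adjusted p = 0.187). Leaving out 1 array gave -1.28 to -1.15, none past the threshold, with 1 residual degree of freedom. Over all probe sets, 156 passed in the fit as reported, 671 with arrays centred on their medians, 297 with quantile normalization, 2106 without dim probe sets, 3209 with an intensity trend, 23 without probe sets ending in _s_at or _x_at, 0 with the replicate block, 0 with the crossed block and 0 without any 1 array. Of the member probe sets, 1 passed as reported, 2 with centred arrays (PROS1 11720134_s_at in addition, adjusted p = 0.0462), 3 without dim probe sets and 3 with an intensity trend (both AXL probe sets and PROS1 11720134_s_at), 0 with either block and 0 without any 1 array. Of the list genes, 0 passed as reported, 5 with centred arrays, 2 with quantile normalization, 14 without dim probe sets, 18 with an intensity trend and 4 with the mean of a gene's probe sets. The cause of these differences was not tested. Changes near 0 turned sign in some settings. TYRO3 11722102_a_at was at -0.0086 with quantile normalization, and TYRO3 was at -0.083 as the mean of its probe sets. With arrays left out, GAS6 11754440_s_at ran from -0.10 to 0.088, GAS6 11715551_s_at from -0.25 to 0.0091 and MERTK from -0.016 to 0.073. GAS6 has no value without shared probe sets.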

Other observations

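The mesenchymal-state genes often described beside AXL had a median change of -0.02 over 14 measured, against -0.0043 for all genes. None passed the test in limma, against 0.403% of all genes. At a p under 0.05 with no adjustment 1 was higher and 2 were lower, against 9.76% and 7.25% of all genes. Vimentin (VIM), an intermediate filament of mesenchymal cells, stood at 4.27 and 4.23 in mock and at 4.14 and 4.25 in knockdown cells, with overlap between the groups. The repressor ZEB1 had a change of -0.02 (SE 0.13) and N-cadherin (CDH2) of 0.02 (SE 0.12). The repressor SNAI2 stood at 6.45 and 6.32 in mock and at 6.04 and 5.82 in knockdown cells, a change of -0.45 (SE 0.10, adjusted p = 0.141 in limma). The other lower gene was SNAI1, at -0.33 (SE 0.081), and the higher one was fibronectin (FN1), at 0.22 (SE 0.075), both named after their values were seen.

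Genes of phosphatidylserine exposure and its other receptors, which bear on the lipid that TAM ligands bind, had a median change of 0.02 over 14 measured. None passed the test in limma, against 0.403% of all genes. At that p 3 were higher and 1 was lower, against 9.76% and 7.25% of all genes. The scramblase ANO6 had a change of 0.20 (SE 0.11), the flippase subunit TMEM30A of -0.02 (SE 0.11) and MFGE8, a secreted bridge between phosphatidylserine and integrins, of -0.17 (SE 0.094). The scramblase gene XKR8 was not analysed here.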
